A study of Mus musculus with 13 samples.

Results

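Sall4, Oct4 and 5 further genes of the Oct4 circuit were followed in mouse RNA from 2 sources, named NT1 and TBV. The members were Sall4, Pou5f1 (the gene of Oct4), Fgf4, Utf1, Zfp42, Zfp296 and Tcl1. They were chosen by name as Sall4, Pou5f1 and embryonic stem (ES) cell genes controlled with them. Each had 1 probe, so that 7 of the 9669 genes and 7 of the 20205 probes on the arrays belong here, and all 7 had a value on all 13 arrays.

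The series held 13 two-colour arrays, each with an NT1 source in one dye and a TBV source in the other. NT1 was in Cy5 on 7 and in Cy3 on 6. There were 5 arrays of NT1p14 with TBVp13, 2 of NT1p12 with TBVp13, 4 of NT1p12 with TBVp12 and 2 of NT1 1 with TBV2, which makes 4 source pairs. The series title writes Sall4 -/- beside NT1. Genotype, cell type, age and treatment are not given per sample in the labels, which name only NT1, TBV and the numbers after p, read here as passages. A mouse ES cell line of the name TBV2 exists. NT1 is read here as 1 mutant line, from the title, and TBV as 1 control line, which no sample label states. The values cannot speak for other clones.

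SALL4 is a zinc finger transcription factor of the early embryo and of ES cells, where it binds DNA together with OCT4 and takes part in keeping Pou5f1 transcribed. OCT4, a POU domain factor, binds the octamer element, often next to SOX2, and holds ES cells in the pluripotent state. Its target genes include the growth factor gene Fgf4 and the genes of the nuclear proteins UTF1, REX1 (Zfp42) and ZFP296. Loss of OCT4 in mouse ES cells leads to trophectoderm.

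The letters that OCT4 recognises were looked up in the promoters of the members, since the members are named for that control. RefSeq promoter sequences (GRCm38.p6, 250 bases before to 50 after each start) were at hand for 6 of the 7 genes. The octamer ATGCAAAT, searched on both strands, stood in 2 of the 6, Zfp42 and Zfp296, and in 1.74% of all 32851 promoters. The GC box GGGCGG, a common promoter element that Sp1 family factors bind, stood in at least 1 promoter of each of the 6 and in 35.7% of all promoters. The 2 promoters with an octamer are printed with those of Fgf4 and Pou5f1, the target and the regulator whose ratios are described most closely. Each runs 5′ to 3′ on the strand of its gene, with octamers and GC boxes in capitals. The positions are chr8:43306960-43307259 on the minus strand for Zfp42, and on the plus strand chr7:19577037-19577336 for Zfp296, chr7:144861136-144861435 for Fgf4 and chr17:35505782-35506081 for the upstream promoter of Pou5f1.
Zfp42: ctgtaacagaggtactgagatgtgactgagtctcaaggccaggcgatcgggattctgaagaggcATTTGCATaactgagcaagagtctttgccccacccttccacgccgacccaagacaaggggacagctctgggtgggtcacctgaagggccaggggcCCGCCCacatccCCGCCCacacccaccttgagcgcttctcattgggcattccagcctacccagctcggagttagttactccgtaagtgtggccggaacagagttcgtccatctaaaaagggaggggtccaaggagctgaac
Zfp296: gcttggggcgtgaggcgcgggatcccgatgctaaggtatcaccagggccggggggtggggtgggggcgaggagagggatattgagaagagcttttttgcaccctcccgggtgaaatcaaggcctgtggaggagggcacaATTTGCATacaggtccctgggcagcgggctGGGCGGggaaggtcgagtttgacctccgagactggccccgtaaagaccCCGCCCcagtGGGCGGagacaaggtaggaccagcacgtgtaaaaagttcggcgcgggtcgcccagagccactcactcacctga
Fgf4: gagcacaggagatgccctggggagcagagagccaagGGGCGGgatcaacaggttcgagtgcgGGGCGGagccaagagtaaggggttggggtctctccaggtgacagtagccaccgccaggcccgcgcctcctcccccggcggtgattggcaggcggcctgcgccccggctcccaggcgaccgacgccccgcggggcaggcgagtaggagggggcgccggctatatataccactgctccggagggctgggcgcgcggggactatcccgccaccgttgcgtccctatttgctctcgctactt
Pou5f1: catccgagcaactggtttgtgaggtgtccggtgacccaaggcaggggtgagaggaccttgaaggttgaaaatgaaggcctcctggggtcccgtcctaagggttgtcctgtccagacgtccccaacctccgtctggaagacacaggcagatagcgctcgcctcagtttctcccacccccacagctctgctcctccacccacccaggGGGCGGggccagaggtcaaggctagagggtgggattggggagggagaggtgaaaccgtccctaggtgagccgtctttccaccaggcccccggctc
The Zfp42 octamer begins 186 bases before the start and that of Zfp296 111 bases before it, both as ATTTGCAT on the strand shown. A match is a description of these letters and no evidence of binding. Other spellings and bases outside these stretches were not searched, so a missing match does not show that a gene lacks a site. Among the 107 measured genes with an octamer in a promoter, 7 were below 0 in all 3 independent source pairs and the median log2 ratio of NT1 over TBV was 0.02, beside 365 of 6427 measured genes with a promoter sequence and a median of 0.0007.

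All values that follow are log2 ratios of NT1 over TBV, so a value below 0 means lower in NT1. A ratio carries no level, so whether ES cell markers are present in these sources cannot be read from it. Of 15 ES cell markers 9 were measured, and Nanog and Sox2 were not among them. The sign takes each deposited value to have Cy5 on top. No label says so, and with Cy3 on top every sign would turn. The sign is unsettled also between source pairs: over the 15973 probes valued in each independent pair, r was -0.50 between NT1p14 with TBVp13 on one side and NT1p12 with TBVp12 on the other. Pairs were called independent where they share no source. Between their single arrays with NT1 in Cy5, r ran from -0.36 to -0.01 in 6 combinations, and with NT1 in Cy3 from -0.33 to 0.24 in 4. Of these, 2 and 1 were under -0.3. Means with that first pair turned are therefore given as well. Each array gave values for 14314 to 18381 probes. Of all values 19.3% were whole numbers, so a 0 or -1 among them is read here as a coarse value. The share of whole numbers ran from 2.40% to 40.4% per array. Arrays 4 and 5 of NT1p14 with TBVp13 had the widest spread of all arrays (scaled median absolute deviation 0.68 and 0.88, against 0.08 to 0.49 on the others) and held 29.4% and 39.2% whole numbers.

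The comparison of NT1 with TBV asked how this circuit differs in NT1, beside which the series title writes Sall4 -/-. All 7 members had a mean below 0 over the 3 independent pairs, from -0.20 for Tcl1 to -0.78 for Zfp42. The fibroblast markers, which would mark feeder cells, mostly had a mean below 0 too: of the 15 measured of 23, 13 did and the median was -0.15. Pair by pair they differed from the members, and only 1 marker was below 0 in all 3. The marker median was 0.46 in the pair with NT1p14, but -0.43 where TBVp12 was used and -0.56 where TBV2 was. The member medians were -0.36, -0.59 and -0.28 in that order. The part of the markers in the members' values was not tested. Pou5f1, Fgf4, Utf1, Zfp42 and Zfp296 were below 0 in each of the 3 pairs, 5 of 7 members, where 5.33% of all tested probes were. None was above 0 in all 3, as 9.05% of the probes were, and none was above 0 on all 13 arrays (0.0271% of the 11078 probes with 13 values). Sall4 was below 0 in 2 of the 3 pairs and Tcl1 in 2. None of the 7 passed after correction over all probes (limma, adjusted p = 1.00 for each), where 0.00% of 15973 probes passed. At an unadjusted p under 0.05 stood 164 probes (1.03%), among them Fgf4 and Pou5f1 (limma, unadjusted p = 0.015 and 0.021). The p-values of these genes moved with the settings. With the trend and robust options of limma they were 0.22 each, and 0 probes stood under 0.05. With centring on ribosomal protein genes they were 0.11 and 0.0545 (limma), and with arrays scaled to 1 spread 0.0055 and 0.0091 (limma). The members were chosen with earlier results of these data known, so their shared direction is a description. In bulk RNA, fewer cells of a type and less RNA per cell cannot be told apart.

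**Figure D1:**
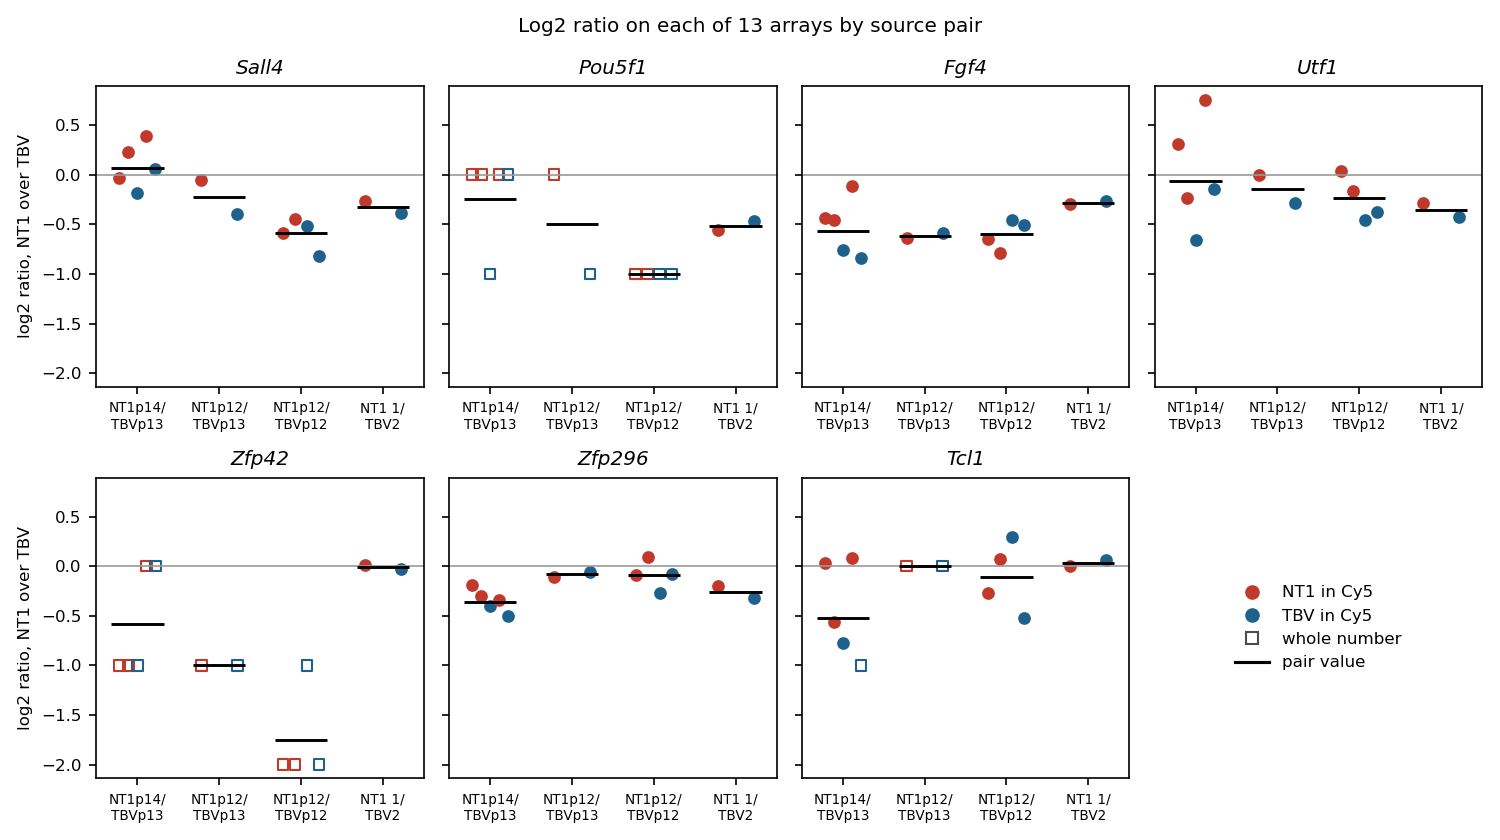
Log2 ratio of NT1 over TBV (vertical axis) of the 7 members on each of the 13 arrays, by source pair, with red for NT1 in Cy5, blue for TBV in Cy5, open squares for whole numbers and a black line for the pair value (mean of both dye orientations). Fgf4 lies below 0 on all 13 arrays, Pou5f1 at -1 on all 4 arrays of NT1p12 with TBVp12, and Sall4 on both sides of 0 in NT1p14 with TBVp13.

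Among the regulators, Sall4 itself (chromosome 2, GRCm38.p6 positions 168748332 to 168767201) read -0.03, 0.23, -0.18, 0.39 and 0.05 on arrays 1 to 5 of NT1p14 with TBVp13. It read -0.05 and -0.40 in NT1p12 with TBVp13, and -0.59, -0.45, -0.51 and -0.82 in NT1p12 with TBVp12. In NT1 1 with TBV2 it read -0.26 and -0.39. Every array outside the first of these pairs thus lay below 0, and in that pair 3 of 5 lay above. Its pair values were 0.07, -0.22, -0.59 and -0.32 in the same order, and its mean over the 3 independent pairs was -0.28 ± 0.33 (SD, n = 3). Without NT1p12 with TBVp12 it was -0.13, and without NT1p14 with TBVp13 it was -0.46. In all, 10 of 13 arrays were below 0, a count that 2.72% of the 11078 probes with 13 values reached or passed. None of its 13 values was a whole number. Where the Sall4 probe lies relative to the mutation is not known here, so the value checks no label. Of the 4 Sall genes only Sall4 was measured.

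Pou5f1 (chromosome 17, 35506032 to 35510777) read 0, 0, -1, 0 and 0 on arrays 1 to 5 of NT1p14 with TBVp13, and 0 and -1 in NT1p12 with TBVp13. It read -1 on all 4 arrays of NT1p12 with TBVp12, and -0.56 and -0.47 in NT1 1 with TBV2. No array was above 0 and 8 of 13 were below, a count that 20.4% of the probes with 13 values reached or passed. At or below 0 on all 13 arrays and below it on 8 or more were 0.217% of the probes with 13 values. The mean of the 3 pairs was -0.59 ± 0.38 (SD, n = 3), and 51 of the 15973 tested probes had a lower mean. Without NT1p12 with TBVp12 it was -0.38. Its 11 values outside NT1 1 with TBV2 were whole numbers, so the steps between 0 and -1 are coarse. The value of -0.25 in NT1p14 with TBVp13 came from array 3 alone. Among the other measured genes of the POU list, Pou2af1, which encodes a coactivator of octamer-binding factors in B cells, had a mean of -0.0078. The POU factor gene Pou6f1 had a mean of 0.03.

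Of the targets, Fgf4 was the member that lay below 0 on every array. FGF4 is secreted by ES cells and activates the ERK pathway, through which ES cells become ready to differentiate. The gene (chromosome 7, 144861386 to 144865245) read -0.44, -0.45, -0.76, -0.11 and -0.84 in NT1p14 with TBVp13 and -0.64 and -0.59 in NT1p12 with TBVp13. It read -0.64, -0.79, -0.46 and -0.51 in NT1p12 with TBVp12, and -0.29 and -0.27 in NT1 1 with TBV2. All 13 arrays were below 0, as they were for 10 of the 11078 probes with 13 values (0.0903%), and none of its values was a whole number. Its pair values were -0.57, -0.61, -0.60 and -0.28, and the mean over the 3 independent pairs was -0.48 ± 0.17 (SD, n = 3). Fitted over the 13 arrays with a dye term, and with arrays of a pair allowed to correlate as a random block, Fgf4 was at -0.52 (limma, SE 0.09, adjusted p = 0.19). In that fit 2 probes passed (0.0181%) and the correlation within pairs was 0.26. With the 13 arrays taken as independent it passed (limma, -0.53, adjusted p = 0.0067), as 0.0993% of the probes did. That last fit counts technical repeats of the same RNA, so its p does not cover the spread between preparations.

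Zfp42 encodes REX1, a zinc finger protein used as a marker of undifferentiated ES cells. The gene (chromosome 8, 43295067 to 43307009) had the lowest mean of the members, -0.78 ± 0.89 (SD, n = 3), with 23 of the 15973 tested probes below it. It read -1, -1, -1, 0 and 0 in NT1p14 with TBVp13 and -1 on both arrays of NT1p12 with TBVp13. It read -2, -2, -1 and -2 in NT1p12 with TBVp12, against 0.0072 and -0.03 in NT1 1 with TBV2. The low mean was thus carried by NT1p14 with TBVp13 (-0.58) and NT1p12 with TBVp12 (-1.75), while NT1 1 with TBV2 stood at -0.0095. Without NT1p12 with TBVp12 the mean was -0.30. Its 11 values outside NT1 1 with TBV2 were whole numbers. Yy1, a zinc finger gene related to Zfp42, had a mean of -0.01.

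Zfp296, a zinc finger gene of ES and germ cells, had small ratios on the same side of 0. The gene (chromosome 7, 19577287 to 19580656) read -0.19, -0.30, -0.40, -0.34 and -0.50 in NT1p14 with TBVp13 and -0.11 and -0.06 in NT1p12 with TBVp13. It read -0.09, 0.09, -0.27 and -0.08 in NT1p12 with TBVp12, and -0.21 and -0.32 in NT1 1 with TBV2. Of 13 arrays 12 were below 0, which 0.298% of the probes with 13 values reached or passed. The mean was -0.24 ± 0.14 (SD, n = 3). It was lowest in NT1p14 with TBVp13 (-0.36), the pair in which Sall4 was highest.

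Utf1 encodes a chromatin-associated protein of ES cells. The gene (chromosome 7, 139943856 to 139945112) read 0.31, -0.23, -0.66, 0.76 and -0.15 in NT1p14 with TBVp13 and -0.0012 and -0.28 in NT1p12 with TBVp13. It read 0.04, -0.16, -0.46 and -0.38 in NT1p12 with TBVp12, and -0.29 and -0.42 in NT1 1 with TBV2. The 3 arrays above 0 all had NT1 in Cy5, and the mean was -0.02 on these arrays alone, against -0.41 on those with TBV in Cy5. Over both it was -0.22 ± 0.15 (SD, n = 3). Its dye effect, the part of the ratio that does not turn with the dyes, was the largest in size among the members at 0.20 and did not pass (limma, adjusted p = 0.21).

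Tcl1, a coactivator of AKT kinases that ES cells express, lay on both sides of 0. The gene (chromosome 12, 105216753 to 105222737) read 0.03, -0.57, -0.78, 0.08 and -1 in NT1p14 with TBVp13, and 0 on both arrays of NT1p12 with TBVp13. It read -0.27, 0.07, 0.30 and -0.52 in NT1p12 with TBVp12, and 0.0027 and 0.06 in NT1 1 with TBV2. Only 5 of 13 arrays were below 0 and 6 were above. The mean of -0.20 ± 0.29 (SD, n = 3) rested on NT1p14 with TBVp13, without which it was -0.04. It was -0.31 without NT1 1 with TBV2, and -0.13 without array 4 of NT1p12 with TBVp12.

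The means of all 7 members were below 0 in both dye orientations, from -0.89 to -0.02 with NT1 in Cy5 and from -0.68 to -0.31 with TBV in Cy5. The number below 0 in every pair differed between the orientations. With NT1 in Cy5 only, Fgf4 alone was below 0 in all 3 pairs, beside 11.4% of all probes. With TBV in Cy5 only, 6 of 7 were, all but Tcl1, beside 15.1% of all probes. On arrays 1 to 3 alone of NT1p14 with TBVp13, a choice made after seeing the data, 6 of 7 were below 0 in all 3 pairs, all but Tcl1, beside 6.28% of the probes. Without array 3 of NT1p14 with TBVp13 the count was 3 of 7 (Fgf4, Zfp42 and Zfp296), beside 5.15% of the probes, since Pou5f1 and Utf1 then no longer lay below 0 in that pair. In limma 0 members passed for the dye effect (0.00% of 15973 probes), with 3868 probes (24.2%) at an unadjusted p under 0.05.

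With all values of NT1p14 with TBVp13 multiplied by -1, the means were -0.33 for Sall4, -0.42 for Pou5f1, -0.11 for Fgf4, -0.39 for Zfp42, -0.18 for Utf1, 0.0040 for Zfp296 and 0.15 for Tcl1. Sall4 was then the only member below 0 in all 3 pairs, beside 14.3% of all probes. The side of Zfp296 and Tcl1 thus rests on the direction of that pair, whereas the means of the other 5 members stayed below 0 either way. That of Fgf4 was then closer to 0.

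The source pairs were compared because NT1p14 with TBVp13 and NT1p12 with TBVp12 opposed each other over all probes. Each of them is 1 pair of RNA sources on repeat arrays, so the p-values set a difference between single preparations against the spread of repeat arrays alone. They say nothing of other preparations or of passages. The difference of their log2 ratios, NT1p14 with TBVp13 minus NT1p12 with TBVp12, was 0.66 for Sall4 (limma, SE 0.15, adjusted p = 0.026), 0.77 for Pou5f1 (limma, SE 0.21, adjusted p = 0.036) and 1.18 for Zfp42 (limma, SE 0.31, adjusted p = 0.035). Against that technical spread 3 of 7 members passed as higher in NT1p14 with TBVp13, where 11.0% of 12088 probes did (22.4% in either direction, and 41.6% at an unadjusted p under 0.05). The arrays of the pairs did not overlap for Sall4, as in 7.20% of the probes with 13 values, and met at -1 for Pou5f1 and Zfp42. All values of Pou5f1 and Zfp42 on these arrays were whole numbers, so their SE and p rest on coarse steps. Fgf4 differed by 0.07 (SE 0.17), Utf1 by 0.19 (SE 0.22), Zfp296 by -0.28 (SE 0.12) and Tcl1 by -0.38 (SE 0.25), and these did not pass (limma, adjusted p = 0.79, 0.52, 0.12 and 0.26). Leaving out array 1, 2 or 4 of NT1p12 with TBVp12, or array 2 or 5 of NT1p14 with TBVp13, ended all calls (0 of all probes passed, and adjusted p for Sall4 was at most 0.096). Leaving out array 4 of NT1p14 with TBVp13 ended the calls of Pou5f1 and Zfp42 (limma, adjusted p = 0.061 and 0.051), and scaling the arrays to 1 spread ended that of Zfp42 (0.73, limma, adjusted p = 0.30). With all values cut to whole numbers, Pou5f1 and Zfp42 stayed at 0.77 and 1.18 but did not pass (limma, adjusted p = 0.51 and 0.53). The difference of Sall4 then went to 0. The median of the fibroblast markers moved with Sall4, Pou5f1 and Zfp42 between the pairs: it was 0.46 for NT1p14 with TBVp13, against -0.43 for NT1p12 with TBVp12. The markers Prrx1 (-0.21 against 0.06), Col6a1 (-0.07 against 0.11) and Dcn (-0.45 against -0.07) went the other way. The part of the markers in the result was not tested.

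**Figure D2:**
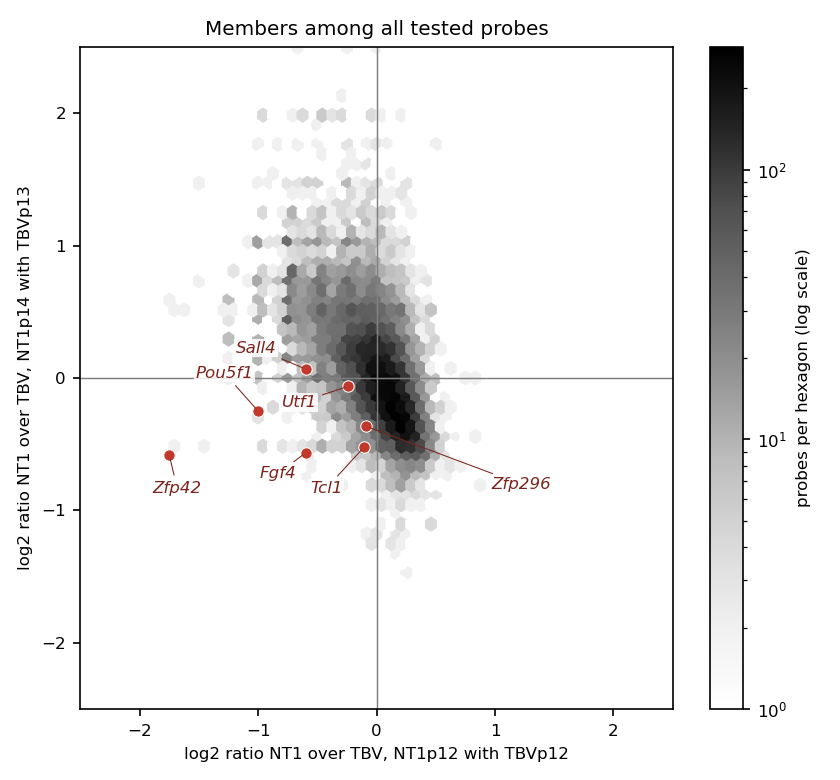
Log2 ratio of NT1 over TBV in NT1p14 with TBVp13 (vertical axis) against NT1p12 with TBVp12 (horizontal axis), with all tested probes as grey hexagons shaded by their number on a log scale and the 7 members as red points (94 probes beyond 2.5 are not drawn). All members but Sall4 lie below 0 on both axes, while over all probes the pairs correlate at r = -0.50.

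NT1p12 with TBVp13 shares its NT1 source with one of these pairs and its TBV source with the other, which splits each difference into a step within NT1 and a step within TBV. For Sall4, NT1p14 minus NT1p12 was 0.29 and TBVp13 minus TBVp12 was -0.37. For Pou5f1 these steps were 0.25 and -0.50, and for Zfp42 0.42 and -0.75. The values of Pou5f1 and Zfp42 in these source pairs were all whole numbers, so their steps are coarse. The steps of Fgf4 were 0.05 and 0.01, so its pair values stayed close to each other along the chain of passages. There is 1 source for each step and no test.

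Across the 13 arrays the ratios of Sall4 and Pou5f1 ran together, with a Pearson correlation of 0.84, the highest of the 21 pairs of members. Zfp42 and Zfp296 had the lowest, -0.72. The median over the 21 was 0.28, and 15 were above 0. Arrays of a source pair share their RNA, and Pou5f1 and Zfp42 were mostly whole numbers, so these correlations are descriptions. Among 6423 probes with 1 symbol, 13 values and at least 4 distinct values, Sall4 ranked 7 in likeness to Pou5f1. In the other direction, Pou5f1 ranked only 333 in likeness to Sall4. The 5 most like Pou5f1 were Stk35os1 and Prss29 (r = 0.86 each), and Rbm28, Sumo3 and 4933404O12Rik (0.85 each). The 5 most like Sall4 were Dlg1, Cactin and Syndig1l (0.97 each), Glipr1 and Mib2 (0.96 each). The 5 most like Zfp42 were Hnrnpul2 (0.95), 4930469G21Rik, Spink4, Rufy1 and Sod1 (0.94 each), of which Spink4, Rufy1 and Sod1 held 11 whole numbers like Zfp42 itself.

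**Figure D3:**
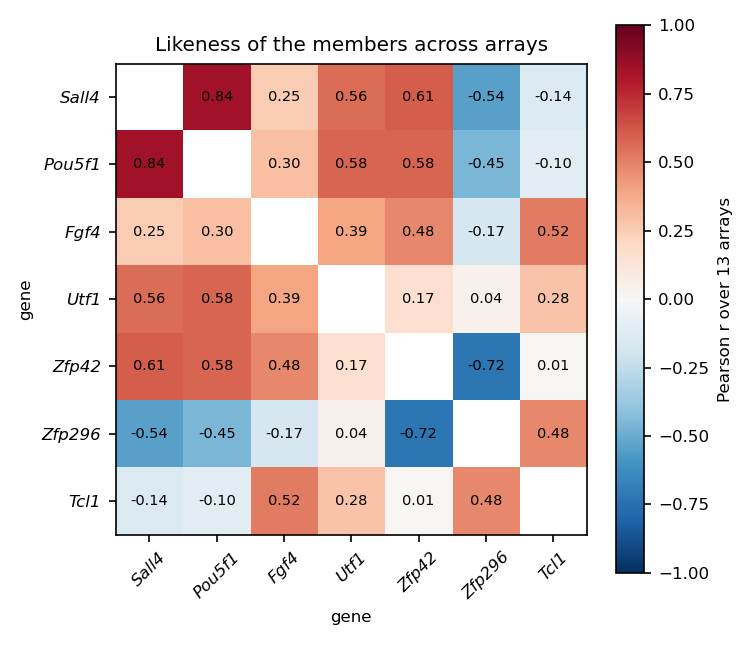
Pearson correlation (colour scale from -1 to 1, value in each cell) of the log2 ratios of NT1 over TBV between each pair of members (both axes) over 13 arrays. Sall4 and Pou5f1 share 0.84, and Zfp296 is below 0 with Sall4, Pou5f1, Fgf4 and Zfp42.

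Related genes were read against the members. Of 24 listed targets of Oct4 and Sox2, 13 were measured, 5 were below 0 in all 3 independent pairs and 0 above, beside 5.45% and 8.95% of all 7968 measured genes. The 5 are members, and the members were chosen with these data known. The lowest were Zfp42, Pou5f1 and Fgf4 as given. The highest were Lefty1, an inhibitor of Nodal signalling, at 0.86, Jarid2, a Polycomb partner, at 0.27, and Trim24, a transcriptional cofactor, at 0.13. Lefty1 thus lay on the other side of 0 from the members, at 1.58 in NT1p14 with TBVp13, at 0 in NT1p12 with TBVp12 and at 1.00 in the NT1 1 pair. In the wider pluripotency list 16 of 44 genes were measured and 3 were below 0 in all 3 pairs: the Kruppel-like factor gene Klf4 at -0.32, the nuclear receptor gene Esrrb at -0.25 and the zinc finger gene Zscan10 at -0.19. Its highest genes were Lefty1, Alpl, which encodes the alkaline phosphatase of ES cells, and the Kruppel-like factor gene Klf2, the last pair of genes at 0.19 each. The median of that list was -0.01, beside 0.0007 over all genes. Of the 9 measured ES cell markers 6 were below 0 in all 3 pairs and 0 above, with a median of -0.25. Of these 6, Zfp42, Pou5f1, Fgf4 and Utf1 are members, and Klf4 and Esrrb are not. The remaining markers, Nr0b1, Dppa5a and Gdf3, were above 0 in NT1p14 with TBVp13, at 0.61, 0.17 and 0.24. No gene of any list passed, as no probe did.

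Of 33 FGF4 pathway genes 12 were measured and Fgf4 was the only gene below 0 in all 3 pairs. The next lowest were the small GTPase gene Nras at -0.14 and the receptor gene Fgfr1 at -0.05. The highest were the kinase gene Map2k2 at 0.58, the phosphatase gene Ptpn11 at 0.15 and Dusp6, a feedback inhibitor of ERK, at 0.14. Dusp6 stood at 0.97, -0.08 and -0.48 in the same order of pairs, while Fgf4 was below 0 in each. Of 23 genes around TCL1 and AKT 9 were measured, 7 with a mean above 0, and 3 were above 0 in all 3 pairs and 0 below, beside 8.95% and 5.45% of all genes: Akt2 itself at 0.04, and the kinase genes Pik3cb at 0.35 and Pdpk1 at 0.16. Mtor, the growth-controlling kinase gene, had the highest mean there, 0.38, and was below 0 in NT1 1 with TBV2. The lowest of that list besides Tcl1 were Tsc2 at -0.05 and Pik3r1 at 0.0044.

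Of 30 trophectoderm genes, the programme that OCT4 holds down, 14 were measured. In all 3 pairs 4 were above 0 and 1 below, beside 8.95% and 5.45% of all genes. Above were the keratins Krt18 at 0.38 and Krt19 at 0.21, the tight junction gene Cldn4 at 0.33 and the imprinted H19 at 0.34. Below was Lgals3 at -0.07, and the other low means were Cldn6 at -0.11 and Gata2 at -0.05. Cdx2, the factor that drives trophectoderm, was not among the measured genes. The median of the list was 0.01.

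**Figure D4:**
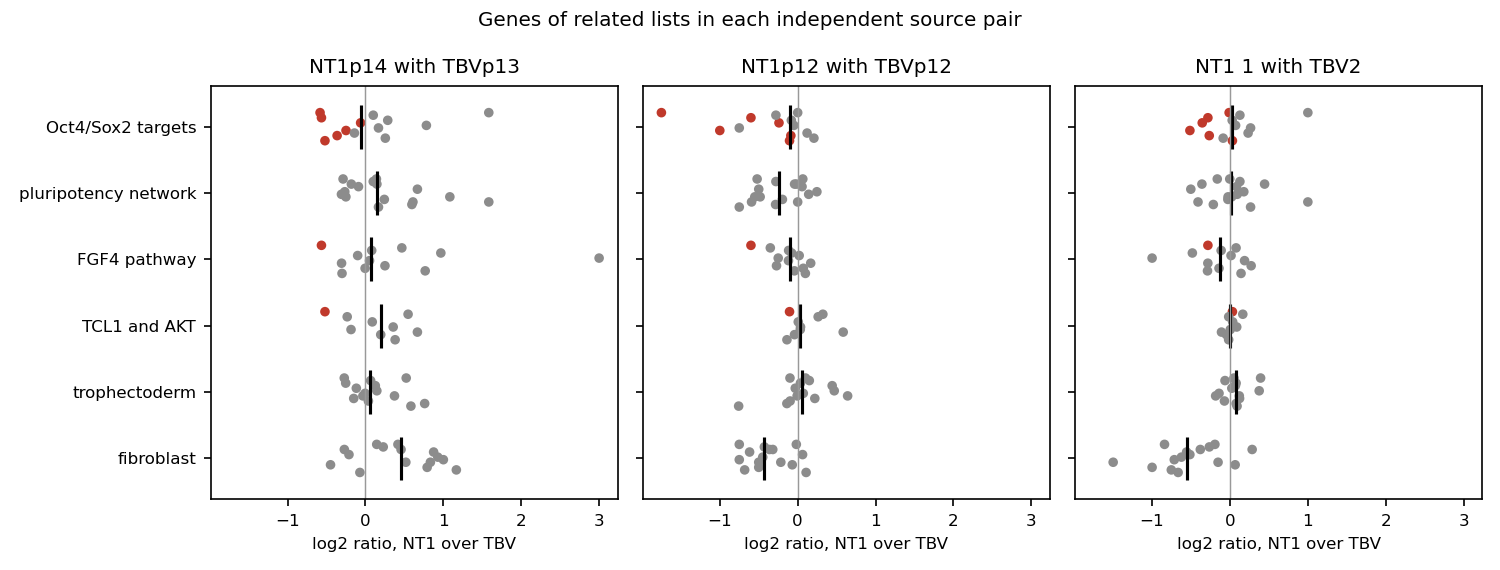
Log2 ratio of NT1 over TBV (horizontal axis) of the measured genes of 6 lists (rows) in the 3 independent source pairs (panels), 1 point per gene, members in red and the list median as a black bar. The fibroblast medians are 0.46, -0.43 and -0.56 from left to right, while Fgf4 stays below 0 in all 3 panels.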

How the data were processed

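Total RNA of NT1 and TBV sources was measured on 13 two-colour arrays. The deposited table holds 1 value per probe and array, taken as a log2 ratio of the channels as made by the authors. The log base, numerator, normalisation and scanner settings are not given in the sources used here. The base was taken as 2, and the largest size was 15. Probes were named through the platform annotation (11723 with 1 symbol, 806 with several, 7676 with none).

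Each array was centred on its median and turned to NT1 over TBV. A pair value is the mean of both dye orientations. For NT1 against TBV, arrays of the same RNA count as 1 replicate. The difference between pairs was fitted on 9 single arrays. NT1p12 with TBVp13 shares its sources and entered no main test, which left n = 3. Probes were tested with limma 3.58.1 in R 4.3.3 (lmFit, eBayes, two-sided, Benjamini-Hochberg over all probes, threshold 0.05). The fits were tested on simulated data. Figures used matplotlib 3.10.9.

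The members and lists were chosen with earlier results of these data known. The named genes were all members and, per list, the 3 highest and 3 lowest means. Akt2, Krt19, Prrx1, Col6a1 and Dcn were named after their values were seen. The p-values of NT1 against TBV measure the spread between preparations of what is read as 1 NT1 and 1 TBV line. Those on single arrays measure the spread between repeat arrays, and the number of arrays limits the precision. The alternatives changed the dyes used, centring, scaling, decimals, the direction of a pair, and which arrays or pairs were left out. Those on 13 arrays changed the replicate, added NT1p12 with TBVp13 and kept the 11078 probes with 13 values.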

Additional observations from a re-analysis of the deposited data

Results flagged for a closer look

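Array 3 of NT1p14 with TBVp13 stood apart for Pou5f1, at -1 against 0 on the other 4 arrays of that pair. Array 3 of NT1p12 with TBVp12 stood apart for Zfp42, at -1 against -2 on the other 3. Both are whole numbers, and 13 groups of 4 or 5 arrays were examined. For values in fine steps chance sets about 1 in 20 such groups apart, a rate that need not hold for whole numbers.

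The log2 ratio of NT1 over TBV in NT1p14 with TBVp13 was above that in NT1p12 with TBVp12 for Sall4 by 0.66, for Pou5f1 by 0.77 and for Zfp42 by 1.18, in the limma fit on 9 arrays, which measures the spread of repeat arrays of 1 preparation each. The values of Pou5f1 and Zfp42 on these arrays were all whole numbers. On arrays 1 to 3 of NT1p14 with TBVp13 only, a setting chosen after seeing the data because arrays 4 and 5 had the widest spread, none of the 3 passed (limma, 0.56 for Sall4 with adjusted p = 0.078, 0.60 for Pou5f1 with adjusted p = 0.13 and 0.80 for Zfp42 with adjusted p = 0.11), and 35 of all probes did.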

How the results depend on the processing

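Every array pairs NT1 with TBV. The labels give no replicate numbers that pair arrays across source pairs, so none was used as a block. The count of 0 probes past the threshold for NT1 against TBV held when each pair or array was left out and in the other settings on 3 or 4 pairs, except 1 probe with centring on ribosomal protein genes. It was 2 with 13 arrays when arrays of a pair could correlate as a random block, and 11 with independent arrays, Fgf4 among them. The members kept a mean on the same side in all 98 fits that left out a pair or an array. When the signs of NT1p14 with TBVp13 were turned, Zfp296 went to 0.0040 and Tcl1 to 0.15, and their differences between the pairs to 0.44 and 0.59. The 5 members below 0 in all 3 pairs became 1 with NT1 in Cy5 only, 1 with those signs turned, 1 with values rounded to whole numbers and 0 with values cut to whole numbers, and ran from 3 to 6 when a pair or an array was left out. On arrays 1 to 3 of NT1p14 with TBVp13 the count was 6, Sall4 included (-0.04 in that pair), beside 6.28% of all probes, and the difference of Utf1 between the pairs was -0.036. The dye effect had 454 probes with independent arrays and 0 to 1 with a pair left out, where the dye effect ran from -0.022 to 0.13 for Pou5f1, from -0.065 to 0.11 for Fgf4 and from -0.011 to 0.19 for Tcl1. The difference between the pairs had 1206 probes without a dye term, 35 on arrays 1 to 3, 2 with values cut to whole numbers, 1 with turned signs and 0 to 3215 with an array left out, where that of Fgf4 ran from -0.047 to 0.15. With scaled arrays the difference of Zfp42 did not pass (limma, adjusted p = 0.30). The cause was not tested. The table holds no intensities, so signal over background is unknown.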

Other observations

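Markers of primitive endoderm, which were not part of the comparisons, were measured for 7 of 14 genes, with a median log2 ratio of NT1 over TBV of 0.03 and 0 genes on one side of 0 in all 3 pairs. The highest were the fetal plasma protein gene Afp at 0.19 and the basement membrane genes Col4a1 at 0.17 and Lama1 at 0.14. The lowest were the lipoprotein gene Apoa1 at -0.22, the transthyretin gene Ttr at -0.07 and Sox17 at -0.02. Of the fibroblast markers the surface glycoprotein gene Thy1 alone was below 0 in all 3 pairs, at -0.27, -0.32 and -0.38 in the pairs of NT1p14, NT1p12 (with TBVp12) and NT1 1, while the list median was 0.46, -0.43 and -0.56.

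Besides Fgf4, the probes below 0 on all 13 arrays included those of Med13l, Top1, Lyzl4, Mapre1 and Rims1, with means from -0.63 for Lyzl4 to -0.25 for Mapre1, and 4 probes with no single gene symbol. These genes were named after their values were seen.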
